A study of Arabidopsis thaliana with 14 samples.

Results

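RNA levels in whole roots of Arabidopsis thaliana seedlings were compared between 6 h on a medium without iron and standard medium. The comparison used 4 of the 14 arrays in the series, 2 labelled as 6 h without iron and 2 labelled as standard conditions, and they were chosen by those labels alone. All 22746 probe sets outside the array's own controls belonged to the comparison. Of these, 13647 had enough signal to be tested and 9099 lay below a filter on low signal.

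All seedlings were of the Columbia ecotype and had grown for 5 days on standard medium, which holds iron as Fe(III)-EDTA. The 6 h group was then kept for 6 h on medium whose iron source was replaced by 0.3 mM Ferrozine, a chelator of ferrous iron. The standard group was moved to fresh standard medium for 3 h, so the comparison spans a difference in time since transfer as well as in iron, and the 2 cannot be told apart. Groups kept for 3, 12 and 24 h without iron, with 2 arrays each, entered the same fit and gave 2 further comparisons. An array held RNA of about 320 pooled roots, cut below the junction with the hypocotyl, and the labels describe the 2 arrays of a group as biological replicates. In RNA of whole roots, fewer cells of a type and less RNA per cell cannot be told apart.

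Plants outside the grasses take up iron by acidifying the soil around the root, reducing ferric chelates at the root surface and importing ferrous iron. Roots short of iron also secrete coumarins, phenolic compounds that dissolve and reduce ferric iron. A cascade of bHLH transcription factors, promoted by small IMA peptides and restrained by BTS-type ubiquitin ligases, switches these genes on.

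Values are probe set signals on a linear scale, and a fold change is a difference of log2(signal + 16), which makes the changes of weakly expressed genes look smaller. The median signal was 88.9 to 94.9 on the 4 arrays. The replicate correlation over probe sets was 0.954 at 6 h and 0.962 on standard medium. RNA integrity can be read from control probe sets at both ends of a transcript, whose 3′ over 5′ ratio was 2.5 and 2.4 for actin at 6 h, against 1.74 and 2.06 on standard medium. For ubiquitin the ratio was 2.84 and 2.02 at 6 h and 1.67 and 2.45 on standard medium, and for GAPDH 0.889 and 0.738 at 6 h and 0.804 and 0.896 on standard medium. The actin ratios of the groups do not overlap, and the part of RNA quality in the results was not tested.

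After 6 h without iron, 69 probe sets differed from standard medium, which is 0.506% of those tested. Of these, 18 were higher (0.132%) and 51 were lower (0.374%), with log2 changes of 0.94 to 2.97 in size among the higher and 0.85 to 2.75 among the lower. In each of the 69, both 6 h arrays lay on the same side of both standard arrays, as did 37.3% of all tested probe sets (19.8% higher and 17.5% lower). The table used paired 8 of the higher and 23 of the lower probe sets with 1 gene, 1 higher probe set with several genes, and the other 9 and 28 with none. Without a threshold on multiple testing, 573 probe sets were higher (4.2%) and 609 lower (4.46%) at an unadjusted limma p under 0.05, together 8.66%. The count depended on each array compared. It fell when any 1 of the 4 arrays compared was left out. Without standard replicate 1, lower calls no longer outnumbered higher ones, and the cause of this was not tested. At the threshold, AT4G26130 lay just inside, at 157 and 190.1 in signal at 6 h against 396 and 403 on standard medium (adjusted p = 0.0495). Just outside lay an unnamed probe set, at 1058 and 891 at 6 h against 1936 and 1536 on standard medium (adjusted p = 0.0501).

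**Figure D1:**
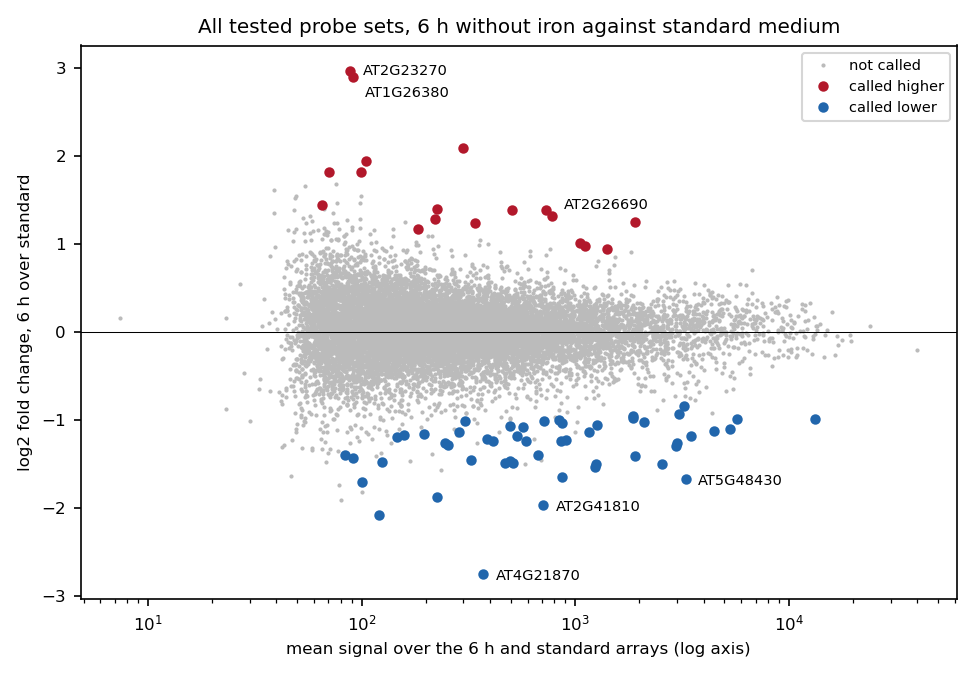
Each point is 1 of the 13647 tested probe sets, with its mean signal over the 6 h and standard arrays on a log axis and its log2 fold change, 6 h over standard, on the vertical axis. The 18 probe sets called higher (red) and the 51 called lower (blue) reach farthest at AT2G23270 and AT1G26380 above 0 and at AT4G21870 below 0, and uncalled probe sets (grey) spread more widely at low signal.

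The largest rises were in a gene for the precursor of a secreted peptide and a gene for an enzyme known from defence. AT2G23270, the precursor of the PIP3 peptide, one of a family of secreted peptides first described in immune signalling, had signals of 181 and 158 at 6 h, against 13.1 and 3.16 on standard medium. Both 6 h arrays were far above both standard arrays, where the gene was near the bottom of the signal range. Its log2 fold change was 2.97 ± 0.42 (SE, n = 2 arrays per group) with an adjusted p of 0.00183. On standard medium AT2G23270 lay below the level of the filter and passed it through the groups without iron, so the size rests on the pseudocount, with 4.47 at a pseudocount of 1 and 1.70 at 64.

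AT1G26380 encodes FOX1, a FAD-linked oxidase of the berberine bridge enzyme family that acts in the synthesis of indolic defence compounds. It had signals of 173 and 170.1 at 6 h, against 2.57 and 17.8 on standard medium. The 6 h arrays were nearly equal and did not overlap with the standard arrays, and the log2 fold change was 2.90 ± 0.33 (adjusted p = 0.000143), or 4.39 at a pseudocount of 1 and 1.67 at 64. On standard medium AT1G26380 also lay below the level of the filter and passed it through groups without iron. The calls of AT2G23270 and AT1G26380 held under each alternative that tested them, and a filter at 60% left both out. RALFL27 (AT3G29780), of the family of RALF-like peptides that signal at the cell surface, had signals of 174 and 144 at 6 h, against 13.1 and 68.0 on standard medium. The standard arrays were far apart from each other but both lower, and RALFL27 rose by 1.82 ± 0.36 on the log2 scale (adjusted p = 0.0217), or by 1.14 at a pseudocount of 64. Its rise was 1.055 without standard replicate 1 and 2.586 without standard replicate 2. The mean of RALFL27 on standard medium lay below the level of the filter, which it passed through the groups without iron. The call of RALFL27 was lost without replicate 1 of 6 h (adjusted p = 0.170), replicate 2 of 6 h (0.0893) or standard replicate 1 (0.267).

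Among the other secreted peptide and receptor genes, the list for them had 5 of its 15 genes tested. The 2 that rose were AT2G23270 and RALFL27, and 0 fell. RALFL33 (AT4G15800) was at −0.25, RALFL34 (AT5G67070) at 0.27 and FER (AT3G51550), the receptor kinase FERONIA that binds RALF peptides, at −0.31. The precursors of 2 relatives of PIP3 lay below the filter and were not tested. PIP2 (AT4G37290) had signals of 41.0 and 61.6 at 6 h, against 3.33 and 1.27 on standard medium. PIP1 (AT4G28460) had 53.3 and 27.5 at 6 h and 3.83 and 50.5 on standard medium, so its groups overlap.

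Of the list for indolic defence metabolism, FOX1 was the 1 of 14 genes tested, and the 4 other FOX genes of the list had too little signal. FOX4 (AT1G26410) had 12.1 and 27.6 at 6 h, against 1.51 and 2.75 on standard medium. FOX5 (AT1G26420) had 43.7 and 54.6 at 6 h, against 10.1 and 37.1 on standard medium. FOX2 (AT1G26390) had 24.5 and 47.7 at 6 h, against 20.3 and 23.3 on standard medium. In these 3 genes, which the filter removed, both 6 h arrays were above both standard arrays. That was so in 19.8% of the tested probe sets, a share not counted among those removed. FOX3 (AT1G26400), at 3.26 and 6.51 at 6 h and 14.9 and 1.02 on standard medium, overlapped. The calmodulin-like gene CML46 (AT5G39670), a calcium sensor of the touch and wounding list, was also below the filter, with 71.3 and 80.9 at 6 h, against 27.8 and 5.47 on standard medium. CML47, of the same list and also below the filter, had 1.4 and 22.7 at 6 h and 8.19 and 12.1 on standard medium, and these overlap. WRKY53 (−0.01) and ZAT10 (0.45, AT1G27730), 2 stress transcription factor genes of the same list, were tested and not called. Of the ethylene list, EIN3 (AT3G20770), the central transcription factor of that hormone's response, was the gene tested and stood at −0.27 (adjusted p = 0.727).

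The other named rises include a transporter gene and enzyme genes. AT2G26690, which encodes the nitrate transporter NPF6.2, had signals of 1163 and 1071 at 6 h, against 462 and 412 on standard medium, and rose by 1.32 ± 0.22 on the log2 scale (adjusted p = 0.00756). AT1G68620, a carboxylesterase gene, had 1071 and 1048 at 6 h, against 426 and 367 on standard medium, and rose by 1.39 ± 0.24 (adjusted p = 0.0106). AT3G18250 had 129 and 225 at 6 h, against 27.3 and 38.8 on standard medium, and rose by 1.94 ± 0.32 (adjusted p = 0.00697), or by 1.29 at a pseudocount of 64. On standard medium AT3G18250 lay below the level of the filter and passed it through the groups without iron. AT5G57785 rose by 1.01 and AT1G64590, a short-chain dehydrogenase gene, by 0.94 (1903 and 1792 at 6 h, against 762 and 1192 on standard medium). In all 5 genes the groups did not overlap, which the rule for named genes required. Among all tested probe sets, 19.8% were higher without overlap. In AT1G68620, AT2G26690 and AT5G57785 the standard arrays were close to each other. Each of the 5 lost its call without at least 1 of the 4 arrays compared, with the largest adjusted p 0.494 for AT1G64590 (without standard replicate 1), 0.198 for AT5G57785 (without standard replicate 1), 0.117 for AT3G18250 (without replicate 2 of 6 h), 0.0773 for AT1G68620 (without standard replicate 2) and 0.0725 for AT2G26690 (without replicate 1 of 6 h).

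**Figure D2:**
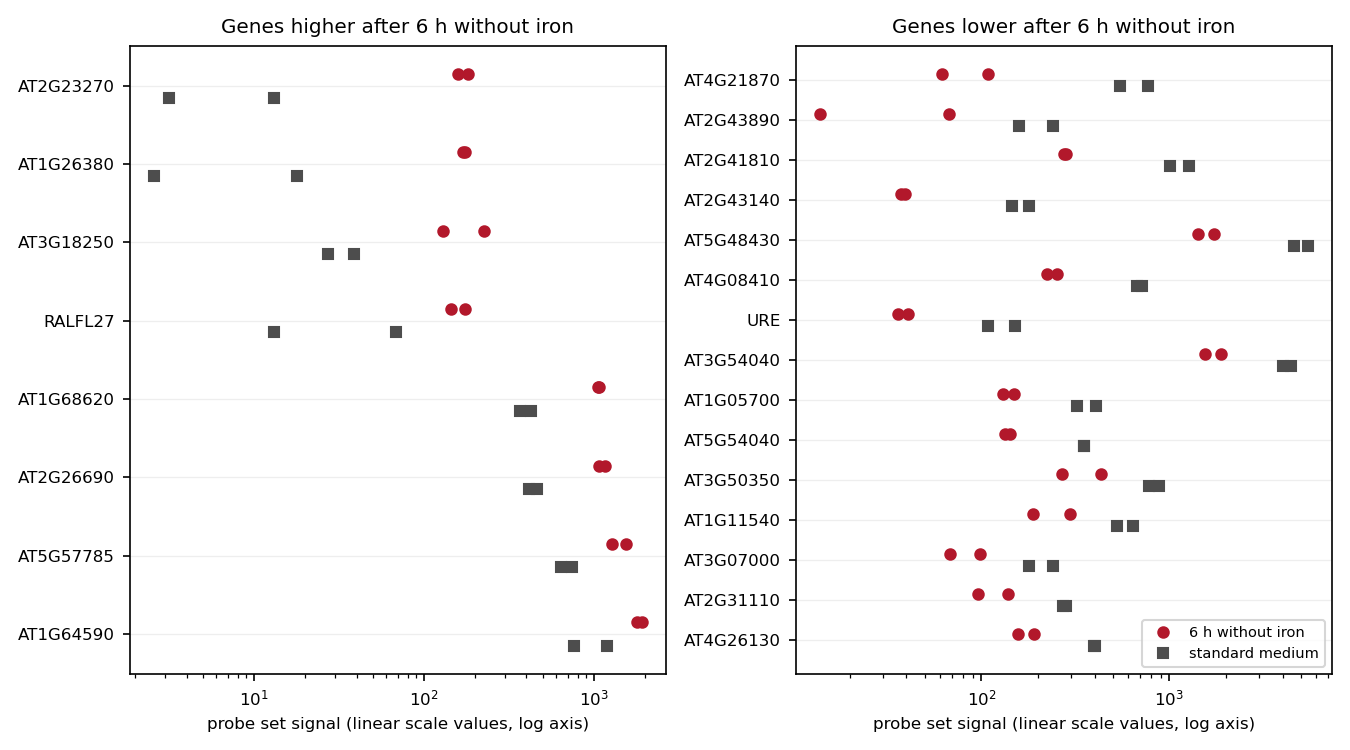
Signals of the 23 named genes on a log axis, with a row for each gene, red circles for the 2 arrays of 6 h without iron and grey squares for the 2 arrays of standard medium. In the left panel (8 rises) both circles lie right of both squares, and in the right panel (15 falls) both lie left of them. The rule for named genes required this.

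The largest fall was in AT4G21870, which encodes the small heat shock protein HSP15.4. Its signals were 61.7 and 108 at 6 h, against 767 and 544 on standard medium. The groups were far apart, and the log2 fold change was −2.75 ± 0.27 (SE, n = 2 arrays per group) with an adjusted p of 8.33e-05. AT4G21870 was the 1 gene of the heat shock list of 12 that was tested. HSP22 (AT4G10250), the other heat shock gene of the list that the table paired with a probe set, had 15.1 and 1.24 at 6 h and 6.56 and 2.22 on standard medium, below the filter and with overlapping groups.

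AT2G41810, which encodes a cell wall protein of the DUF642 family, had 274 and 281 at 6 h, against 1007 and 1273 on standard medium. The 6 h arrays were close to each other, and AT2G41810 fell by 1.97 on the log2 scale (SE 0.21, adjusted p = 0.000107). AT5G48430, of the aspartyl protease family, had 1416 and 1722 at 6 h, against 5430 and 4604 on standard medium, and fell by 1.67 (SE 0.25, adjusted p = 0.00236). The extensin-like gene AT4G08410, of a family of structural wall glycoproteins, had 253 and 224 at 6 h, against 718 and 674 on standard medium, and fell by 1.49 (SE 0.22, adjusted p = 0.00236). AT2G43890, which encodes a protein of the pectin lyase fold, had 67.7 and 13.9 at 6 h, against 241 and 158 on standard medium, and fell by 2.08 (SE 0.43, adjusted p = 0.0289), or by 1.36 at a pseudocount of 64. Its 6 h mean lay below the level of the filter, which it passed through other groups. AT2G31110 (TBL40), of a family whose studied members acetylate wall polysaccharides, fell by 1.16. The calls of AT2G41810 and AT4G08410 held under each alternative run. Those of AT5G48430 (adjusted p = 0.0534), AT2G43890 (0.328) and AT2G31110 (0.228) were lost without standard replicate 1, and AT2G43890 was also lost without replicate 2 of 6 h (0.286) or standard replicate 2 (0.0650), and AT2G31110 without replicate 1 of 6 h (0.299) or standard replicate 2 (0.139).

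Further named genes that fell include regulators and an enzyme of nitrogen use. AT3G54040, of the PAR1 protein family, had 1541 and 1888 at 6 h, against 4033 and 4417 on standard medium, and fell by 1.30 (SE 0.19, adjusted p = 0.00210), a call kept under each alternative run. The bHLH transcription factor gene AT2G43140 had 37.4 and 39.3 at 6 h, against 146 and 178 on standard medium, and fell by 1.71 (SE 0.36, adjusted p = 0.0307). URE (AT1G67550), which encodes urease, the nickel enzyme that frees ammonia from urea, had 36.2 and 40.9 at 6 h, against 150.5 and 109 on standard medium, and fell by 1.40 (SE 0.30, adjusted p = 0.0343), or by 0.91 at a pseudocount of 64. It was the 1 gene of the urea and nitrate list of 10 that the table paired with a probe set. At 6 h both AT2G43140 and URE lay below the level of the filter, which they passed through other groups. The receptor kinase gene AT1G05700 fell by 1.28, AT1G11540 by 1.24, AT3G50350 by 1.24 and AT4G26130 by 1.14. The 2 groups did not overlap in each of these genes, which the rule for named genes required. Among all tested probe sets, 17.5% were lower without overlap. The calls of AT2G43140, URE, AT1G05700 and AT4G26130 were lost without any 1 of the 4 arrays compared (adjusted p up to 0.197, 0.345, 0.150 and 0.309), and those of AT1G11540 and AT3G50350 without any 1 of these arrays other than replicate 1 of 6 h (adjusted p up to 0.248 and 0.286).

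AT5G54040, which encodes a protein with C1 domains, had 134 and 143 at 6 h, against 352 and 353 on standard medium, and fell by 1.26 (SE 0.23, adjusted p = 0.0157). AT3G07000 fell by 1.19, and outside the rule for named genes AT5G43520 by 1.03, AT3G13760 by 1.01 and AT2G44380 by 0.97, and in each the groups did not overlap. Adjusted p ranged from 0.0123 for AT5G43520 to 0.0430 for AT3G07000. AT3G07000 and AT5G54040 lost their calls without any 1 of the 4 arrays compared, with adjusted p up to 0.401 and 0.142. Also outside the rule, the class III peroxidase gene AT5G64100 fell by 0.99 with 8536 and 9138 at 6 h, against 20326 and 15145 on standard medium, the highest 6 h mean among the called probe sets, and the acyltransferase family gene AT4G15390 fell by 1.11, AT5G18150 by 1.08 and AT4G25790, of the CAP family of secreted proteins, by 1.07.

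Of the root hair list, 3 of 14 genes were tested, and 1 fell. EXPA18 (AT1G62980), an expansin that loosens the wall of growing root hairs, had 824 and 788 at 6 h, against 1966 and 1469 on standard medium. EXPA18 fell by 1.06 (SE 0.20, adjusted p = 0.0178), a call lost without standard replicate 1 (0.277) or either array of 6 h (0.102 and 0.128). EXPA7 (AT1G12560), its close relative, had 634 and 512 at 6 h, against 1379 and 824 on standard medium, a value of −0.89 ± 0.23 with an adjusted p of 0.106. The peroxidase gene PRX44 (AT4G26010) had 3109 and 2894 at 6 h, against 6262 and 5208 on standard medium, a value of −0.93 ± 0.22 with an adjusted p of 0.0774. The groups of all 3 genes did not overlap, and 17.5% of all tested probe sets were lower without overlap. The median of the 3 was −0.93, against 0.02 over all tested probe sets.

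The extensin list had 6 of 14 genes tested, of which 1 fell and 5 were below 0, with a median of −0.59, where 46.8% of all tested probe sets were below 0. AT4G08410 was the gene called, and AT5G06630 stood at −1.02 ± 0.23 with an adjusted p of 0.0502. For AT5G06630 the adjusted p was 0.0395 with the replicate number as a block and 0.137 with all 14 arrays in the fit. HRGP1 (AT3G54590) was at −0.67, AT1G23720 at −0.52, AT3G54580 at −0.40 and AT3G28550 at 0.06. The probe sets of AT4G08410, AT5G06630, HRGP1 and AT1G23720 are of the type that may also bind transcripts of related genes, so members of this family are not fully separated. The class III peroxidase list, enzymes that cross-link or loosen the wall, had 7 of 10 genes tested, with 0 called by limma (3 at an unadjusted p under 0.05, against 8.66% of all tested probe sets) and all 7 below 0, where 46.8% of all were. Their values ran from −1.50 in AT1G34510 (454 and 177 at 6 h, against 1006 and 692 on standard medium, adjusted p = 0.0869) to −0.05 in AT2G37130, with a median of −0.46. AT5G17820 was at −0.48, AT3G49960 at −0.46, AT3G01190 at −0.35 and AT4G30170 at −0.15. PRX44 is in both this list and the root hair list. The class III peroxidase gene AT5G64100, called lower, is not in the list. These lists and their members were chosen with earlier results of these arrays known.

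**Figure D3:**
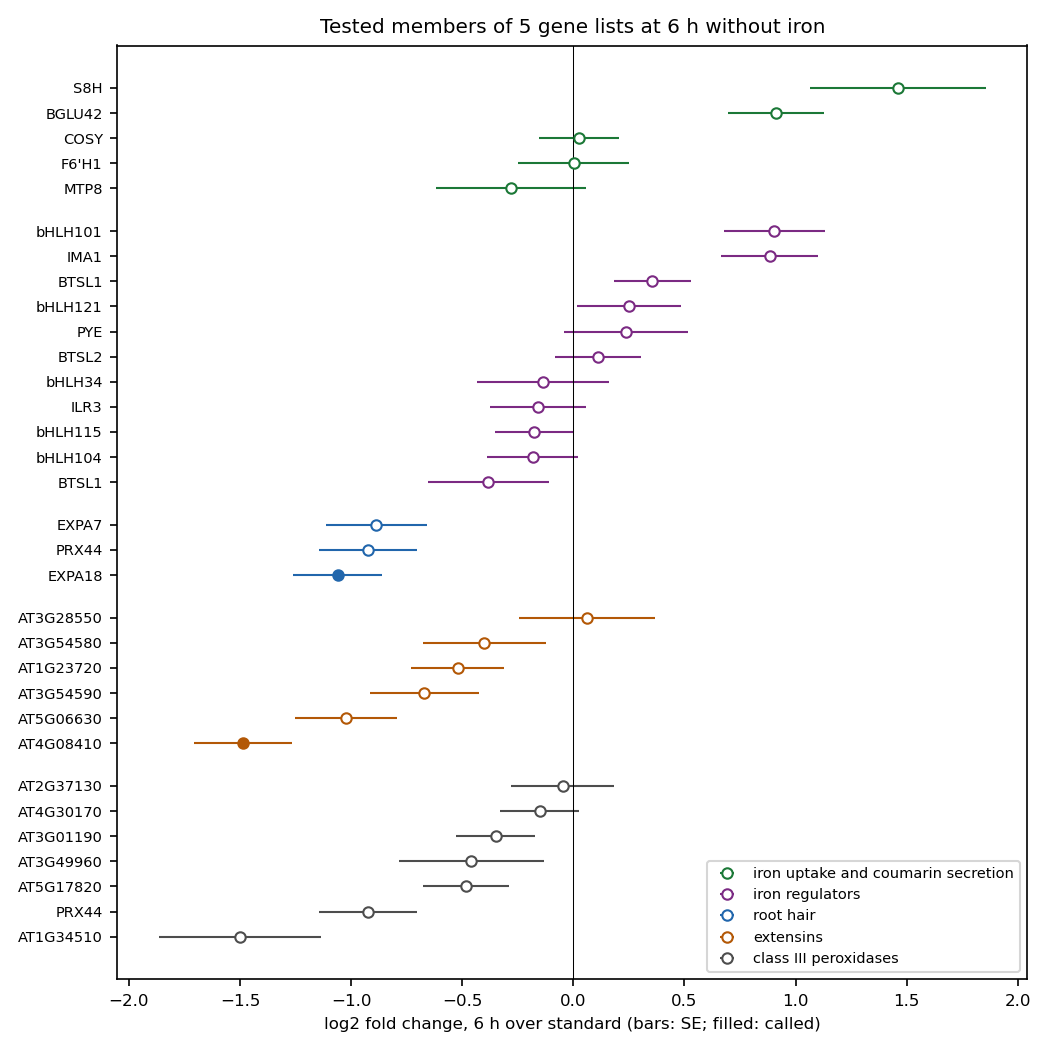
Log2 fold change, 6 h over standard, for each tested probe set of 5 gene lists, with bars for the standard error and filled points for the probe sets called. EXPA18 and the extensin gene AT4G08410 are the filled points, while S8H (1.46), BGLU42 (0.91), bHLH101 (0.90) and IMA1 (0.88) are the highest of the iron lists and are open.

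Of the genes for iron uptake and coumarin secretion, the 5 tested were not called at 6 h. They were the coumarin genes S8H, BGLU42, F6'H1 and COSY and the metal transporter gene MTP8. No other gene of the list was paired with a probe set of its own, so the rest of the list was not tested. The list had 5 of 23 genes tested, with 0 called by limma (2 at an unadjusted p under 0.05, against 8.66% of all tested probe sets), 4 above 0, as were 53.2% of all, and a median of 0.03. S8H (AT3G12900), the enzyme that makes the coumarin fraxetin, had 115 and 190 at 6 h, against 33.0 and 56.5 on standard medium, a value of 1.46 ± 0.39 (adjusted p = 0.142). The value was 1.75 at a pseudocount of 1 and 0.98 at 64. The mean of S8H on standard medium lay below the level of the filter, which it passed through groups without iron. The beta-glucosidase gene BGLU42 (AT5G36890), linked to the release of coumarins, had 510.4 and 665 at 6 h, against 298 and 305 on standard medium, a value of 0.91 ± 0.22 (adjusted p = 0.0737). In both genes the 6 h arrays were above the standard arrays, short of the threshold over all genes. F6'H1 (AT3G13610), which starts coumarin synthesis, was at 0.002 and COSY (AT1G28680), which closes the coumarin ring, at 0.03. The metal transporter gene MTP8 (AT3G58060) had 79.0 and 66.9 at 6 h and 129 and 64.1 on standard medium, and these overlap.

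The list of iron regulators had 10 of 17 genes tested with 11 probe sets, of which 0 were called by limma (2 at an unadjusted p under 0.05, again against 8.66%), 6 were above 0, where 53.2% of all were, and the median was 0.11. IMA1 (AT1G47400), a peptide gene that promotes iron uptake, had 295 and 278 at 6 h, against 181 and 120 on standard medium, a value of 0.88 ± 0.22 (adjusted p = 0.0915). The transcription factor gene bHLH101 (AT5G04150) had 222 and 274 at 6 h, against 148 and 104 on standard medium, a value of 0.90 ± 0.23 (adjusted p = 0.0975). IMA1 (adjusted p = 0.0346), bHLH101 (0.0312), BGLU42 (0.0227) and the peroxidase gene PRX44 (AT4G26010, 0.0356) passed the test when all 14 arrays were in the fit. At 3 h IMA1 already had 410 and 302, above both 6 h arrays, and the difference between 6 h and 3 h was −0.28 ± 0.22 (adjusted p = 1.00). PYE (0.24) and ILR3 (−0.16), 2 further bHLH regulators, and the ubiquitin ligase gene BTSL2 (0.11) had overlapping groups. The 2 probe sets of BTSL1 lay at 0.36 and −0.38. The regulator genes bHLH104 and bHLH115 (both −0.18, adjusted p = 0.879 and 0.855) were lower without overlap, as were 17.5% of all tested probe sets. Higher without overlap was bHLH121 (0.25, adjusted p = 0.834), as were 19.8% of all, and bHLH34 (−0.135) had overlapping groups. The iron-containing ascorbate peroxidase SAPX (AT4G08390) and the copper chaperone CCS (AT1G12520) were both at −0.02.

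The 3 h arrays show which of the 69 probe sets stood apart from standard medium before 6 h. Between 6 h and 3 h, 12 probe sets were called (0.0879% of those tested), all of them lower at 6 h, and 11 of them were among the 51 lower calls. With limma, 0 were called higher, 332 (2.43%) being higher at an unadjusted p under 0.05. This comparison shares the 6 h arrays with the comparison against standard medium. Of the 12 probe sets, 3 name a gene. AT4G21870 had 597 and 595 at 3 h, as on standard medium, and the difference between 6 h and 3 h was −2.64 ± 0.27 (adjusted p = 0.000161). AT5G48430 had 5284 and 5204 at 3 h and differed by −1.74 ± 0.25 (adjusted p = 0.00445). AT2G44370, which was picked after its values were seen, had 323 and 387 at 6 h, 943 and 806 at 3 h, and 776 and 543 on standard medium. Its difference between 6 h and 3 h was −1.26 ± 0.22 (adjusted p = 0.0356), and against standard medium −0.85 (adjusted p = 0.113). The calls included higher ones in other fits, 7 of 31 with all 14 arrays, 3 of 25 with the replicate number as a block and 2 of 5 without replicate 2 of 3 h. The count of 12 was 1 without replicate 1 of 6 h, 2 without replicate 1 and 5 without replicate 2 of 3 h, and 7 without either standard array.

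In 10 of the 18 higher and 16 of the 51 lower probe sets, the mean at 3 h was past 50% of the way to the 6 h mean on the log2 scale. RALFL27 had 149 and 129 at 3 h, and its 6 h and 3 h arrays differed by 0.18. AT4G08410 had 274 and 389 and EXPA18 had 835 and 908 at 3 h, and from there to 6 h AT4G08410 differed by −0.43 and EXPA18 by −0.11, neither called. In these 3 genes the 3 h arrays lay outside the range of the standard arrays and near the 6 h arrays. AT1G26380 had 45.5 and 56.6 at 3 h, between standard medium and 6 h. AT2G23270 had 9.55 and 52.1 at 3 h, 1 array within the range of the standard arrays and 1 above it. The median log2 change of the 18 higher probe sets against standard medium was 0.89 at 3 h, 1.39 at 6 h, 1.66 at 12 h and 1.30 at 24 h. For the 51 lower ones it was −0.39 at 3 h, −1.23 at 6 h, −1.25 at 12 h and −1.39 at 24 h. These 4 comparisons share the standard arrays, and the 69 probe sets were chosen at 6 h.

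**Figure D4:**
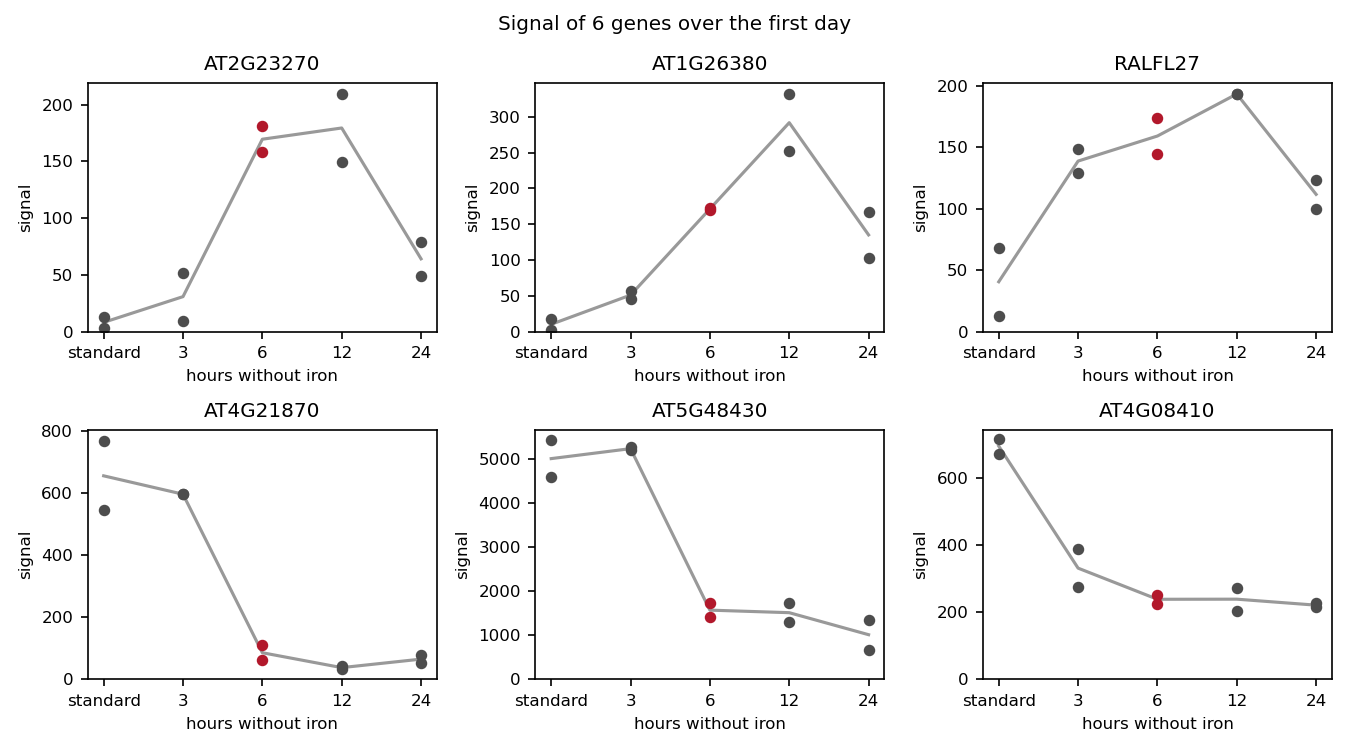
Signal on a linear axis for 6 genes on standard medium and after 3, 6, 12 and 24 h without iron, evenly spaced, with a point for each array (6 h in red) and a line through the group means. AT4G21870 and AT5G48430 are at the standard level at 3 h and low from 6 h, AT4G08410 and RALFL27 are near their 6 h level at 3 h, and the means of AT2G23270 and AT1G26380 are highest at 12 h.

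The comparison of 12 h with 3 h has no array in common with that of 6 h and standard medium, though all these arrays entered the filter and the estimate of spread behind the 69 calls. The 3 h and standard groups had both spent 3 h on their last medium. Both comparisons therefore also span a difference in time since transfer, and its part in their shared directions was not tested. Of the 18 higher probe sets, 17 were also higher at 12 h than at 3 h, where 50.6% of all tested probe sets were above 0. Of the 51 lower probe sets, 51 were also lower, where 49.4% of all tested probe sets were below 0. The exception was an unnamed probe set that stood at −0.17. By the test, 4 of the 18 (22.2%) were called higher, against 0.271% of all probe sets, and 25 of the 51 (49.0%) were called lower, against 0.425%. In all, 95 probe sets were called in that comparison (0.696%), and 36 and 49 without 1 array of 12 h or 40 and 35 without 1 of 3 h. The median differences of 12 h from 3 h were 0.84 for the 18 and −0.93 for the 51. With the fit and filter taken from the 6 h and standard arrays alone, an alternative chosen after seeing the data, 58 probe sets were called, and 10 of 10 higher and 48 of 48 lower ones had the same direction between 12 h and 3 h. Probe sets are not independent of each other, and the share with the same direction was 84.2% to 98.5% when single arrays were left out.

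Among named genes, AT4G21870 differed by −3.54 (adjusted p = 1.41e-06) between 12 h and 3 h, AT1G26380 by 2.19 (adjusted p = 0.00209), AT2G23270 by 2.21 (adjusted p = 0.0166) and AT2G26690 by 1.41 (adjusted p = 0.00318). AT2G41810 was at −1.40, AT5G48430 at −1.80, AT2G43140 at −1.71, AT3G50350 at −1.44, AT5G54040 at −1.30 and AT3G54040 at −0.94, and these 6 were called as well. RALFL27 was at 0.44, AT4G08410 at −0.44 and EXPA18 at −0.18 between 12 h and 3 h, and were not called. URE was at −0.38 with an adjusted p of 0.920, and its signals of 81.3 and 78.5 at 12 h lie above both 6 h arrays. S8H (2.54, adjusted p = 0.00301), bHLH101 (1.21, adjusted p = 0.0144) and BGLU42 (0.95, adjusted p = 0.0483), which were not called at 6 h, were called higher at 12 h than at 3 h. The mean of S8H at 3 h lay below the level of the filter.

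**Figure D5:**
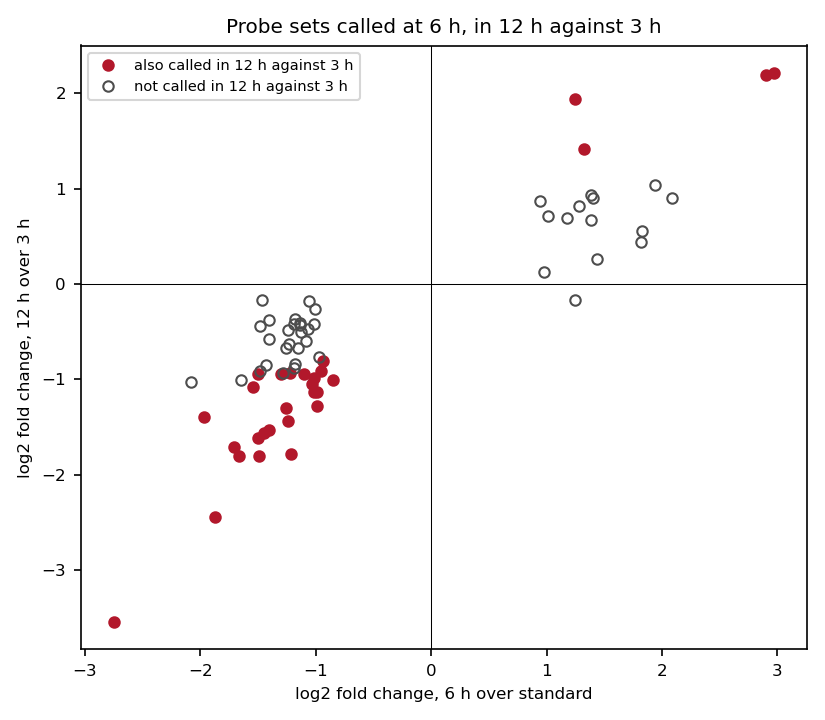
Each point is 1 of the 69 probe sets called at 6 h, with its log2 fold change of 6 h over standard on the horizontal axis and that of 12 h over 3 h on the vertical axis. All but 1 point lie at the upper right or the lower left, and the 29 filled points were also called in the comparison of 12 h with 3 h.

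Of the markers for other tissues and cell types outside the root hair list, 0 were called by limma, and 1 (SWEET11) had an unadjusted p under 0.05. Of the 6 green tissue markers, RCA (AT2G39730) and LHCB4.1 (AT5G01530) were paired with probe sets in the table. Neither was at 0, and their summed signal was 743 to 969 at 6 h and 614 to 674 on standard medium, ranges that do not overlap. RCA was at 0.46 and LHCB4.1 at 0.27, neither was called, and their part in the results was not tested. The endodermis marker SGN3 (AT4G20140, also named GSO1), the 1 of 9 root patterning markers that the table paired with a probe set, had 514 and 539 at 6 h and 534 and 536 on standard medium. The dividing cell marker MCM7 (AT4G02060) was at −0.01. The summed signal of the 3 root hair genes was 4194 to 4567 at 6 h and 7501 to 9607 on standard medium. SWEET11 (AT3G48740), a sugar exporter of the phloem, had 1191 and 1134 at 6 h, against 3352 and 1542 on standard medium, a value of −0.96 ± 0.33 (adjusted p = 0.315). The remaining markers of these lists, and all 4 for xylem, were not analysed here. The clock gene GI (0.04) and the reference genes TIP41L (0.03) and SAND (−0.11) had overlapping groups, while UBC21 (AT5G25760), also a reference gene, was at 0.41 with groups that did not overlap (adjusted p = 0.525).

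Gene families grouped by symbol, chosen after the values were seen, held few calls. Genes that the table lists by locus only, such as AT2G31110 (TBL40), are not counted in them. Among 28 UDP-glycosyltransferase genes (UGT), 14 serine carboxypeptidase-like genes (SCPL), 11 cytochrome P450 genes (CYP), 9 tau class glutathione transferase genes (GSTU), 7 XTH and 5 WRKY genes, 0 were called by limma, and 8 of the 74 (10.8%) had an unadjusted p under 0.05, against 8.66% of all tested probe sets. The median of each of these families lay between −0.17 for WRKY and 0.12 for GSTU. Of 7 RALF-like genes, RALFL27 was the 1 called higher, and RALFL22 was lowest at −0.59 (adjusted p = 0.221). Of 6 alpha-expansin genes, EXPA18 was the 1 called lower, and the median was −0.18. GSTU27 was at −0.75 (adjusted p = 0.104) and CYP71B6 at 0.70 (adjusted p = 0.175).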

How the data were processed

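Root RNA was hybridised to 1 Affymetrix ATH1 array per sample, and the deposited values are intensity values on a linear scale that the authors made with MAS5, per the submitters' processing notes. The trimmed mean of every array was 250.0, so the arrays had been scaled to 1 level before deposit. A pseudocount of 16 was added before taking log2, and a filter dropped the bottom 40% of probe sets by mean signal. limma 3.58.1 in R 4.3.3 (trended prior, 5 residual degrees of freedom) was fitted to the 10 arrays of standard medium and 3, 6, 12 and 24 h. The 48 and 72 h arrays were kept out as a separate set with closer replicates, whose spread would understate that of the 6 h comparison. The SD of the log2 difference between replicates was 0.321 at 48 h and 0.327 at 72 h, against 0.436 to 0.599 in the other groups. Their spike-in signal was 378 to 440, against 2172 to 3232 on the other 10. These arrays entered an alternative. A call is a Benjamini-Hochberg adjusted p under 0.05 over all 13647 probe sets tested, and every adjusted p given is limma's. The number of arrays limits the precision. Genes were named from a table of the platform's annotation, in which 7350 tested probe sets had 1 gene, 270 several and 6027 none.

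Genes named by rule were up to 15 rises and 15 falls, taken by size from called probe sets with 1 gene whose groups did not overlap, which gave 8 and 15. Tested members of the gene lists were named whatever their value. The comparison, members and lists were chosen with earlier results of these data known. On simulated data with 13647 genes, the test of 6 h against standard medium recovered 49% of 100 genes changed 2-fold and 100% of 100 changed 4-fold, with 6 false calls. The alternatives were other pseudocounts, filters, normalizations, priors, array sets, a replicate block and leaving out single arrays. P-values rest on the spread between 2 pools of roots in each of the 5 fitted groups. This spread is drawn toward a trend over all tested probe sets by a prior of 13.4 degrees of freedom.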

Additional observations from a re-analysis of the deposited data

Results flagged for a closer look

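The comparison of 6 h with 3 h without iron, a difference between 2 times under the same medium, called 12 probe sets by limma, all lower at 6 h, while 7 of 31 were higher with all 14 arrays in the fit. Of these, 3 name a gene. AT4G21870 had a log2 difference of −2.64, AT5G48430 one of −1.74 and AT2G44370 one of −1.26, each 6 h minus 3 h, and in each gene both 6 h arrays were below both 3 h arrays.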

How the results depend on the processing

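All 23 named genes kept their direction under each alternative that tested them, 6 kept their call in each of those, and 17 lost it in at least 1. A filter at 60% left 8 of the 23 untested. For 6 h against standard medium, 69 probe sets became 127 (49 higher, 78 lower) with all 14 arrays in the fit, 26 with no filter on low signal, 21 with no trend in the prior and 25 to 78 when single arrays were left out. For 6 h against 3 h, 12 became 31 with all 14 arrays (7 higher, 24 lower), 3 with no filter, 1 with no trend and 1 to 13 without single arrays. For 12 h against 3 h, 95 became 33 with no filter, 32 with no trend and 35 to 86 without single arrays. The share of calls with the same direction at 12 h against 3 h, 98.6%, was 100% with calls and filter from the 4 arrays alone, 100% if no trend was fitted and 100% if all probe sets were kept, and 84.2% to 98.5% without single arrays, alternatives chosen after seeing the data. The other alternatives, apart from the replicate block for 6 h against 3 h, left these values within 1.5 times. The causes were not tested, beyond the fewer arrays of a fit that leaves 1 out. The main fit did not pair arrays by replicate number. The deviations of same-numbered arrays correlated at −0.07 to 0.15 between groups, and whether the replicate numbers share an effect was not tested. With the replicate number as a block, the counts rose to 91, 25 (3 higher, 22 lower) and 115 for these 3 comparisons. Genes of low signal are the least precisely measured, and the 9099 probe sets below the filter have no test.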

Other observations

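The highest called probe set without a gene in the table had signals of 555 and 434 at 6 h, against 110.4 and 96.5 on standard medium, a log2 change of 2.09 (limma adjusted p = 0.000143). HRA1, the 1 gene of the hypoxia list that the table paired with a probe set, lay below the filter with 31.9 and 16.4 at 6 h, against 3.39 and 12.9 on standard medium, so both 6 h arrays were above both standard arrays at low signal. Among tested probe sets 19.8% were higher without overlap, and this share was not counted below the filter. SWEET11, not called at 6 h, was called lower at 12 h than at 3 h (−1.47, limma adjusted p = 0.0456).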
